A study of Mus musculus with 16 samples.

Results

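The EGF family ligands are small growth factors made as membrane-bound precursors, and the ErbB proteins are the receptor tyrosine kinases that bind them. The 10 genes described here were chosen by name: the 7 ligands Egf, Areg, Ereg, Hbegf, Tgfa, Btc and Nrg1 and the 3 receptors Egfr, Erbb2 and Erbb3, matched to the gene names of the array's non-control spots, out of 34797 gene names on the array. All 10 were found, on 12 probes. The filter on dim probes (well above background on at least 4 of 16 arrays) passed 8 of them among 25859 genes tested; Areg and Ereg failed it. No measured value entered the choice.

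RNA came from whole uteri of mice whose ovaries had been removed at 4 weeks of age and that were then kept without ovarian hormone for 2 weeks by the sample labels, or 2 to 3 weeks by the growth protocol. A single subcutaneous injection in castor oil carried 8 ug/kg of estradiol (E2) or no hormone (PLB), and tissue was taken 6 h later. Wild-type mice (WT) and mice of the genotype Arg260-ERα, a form of estrogen receptor alpha named for its arginine Arg260, received both treatments, which gave 4 groups of 4 arrays. The labels do not say how the arginine was changed, whether the allele was confined to a tissue, or whether animals were pooled. All 4 groups, PLB controls included, were ovariectomised, and nothing in the labels gives replicates as separate animals, so p-values measure the spread between samples, which may be technical.

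Shedding by cell-surface proteases releases the ligands. Egf, Areg and Tgfa bind the receptor Egfr, Hbegf, Btc and Ereg bind Egfr and Erbb4, and Nrg1 binds Erbb3 and Erbb4. Erbb2 has no known soluble ligand and pairs with the other receptors, and Erbb3, whose kinase is weak, signals through such pairs. In the rodent uterus the family is best known for estrogen's action on the epithelium and for the attachment of the embryo, where Hbegf is an early signal.

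The sequences below are the probes of a ligand and a receptor that were not above background in some or all groups, and the upstream regions of a ligand that was not detected, of a ligand and a receptor that fell and of a ligand that rose. The probes are 60 bases long, written 5′ to 3′ as the scanner files give them. Areg has a single probe, at chr5:91570090-91570149 of mm9, and so does Erbb3, at chr10:128006424-128006483.
Areg probe: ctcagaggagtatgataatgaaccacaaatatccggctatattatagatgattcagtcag
Erbb3 probe: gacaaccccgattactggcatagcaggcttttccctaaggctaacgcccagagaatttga
RefSeq's table of promoters (build GRCm38.p6) held 6 of the 10 genes (Areg, Btc, Egf, Egfr, Erbb2 and Tgfa). Each entry covers 250 bases before to 50 bases after a start site, and the 250 bases before it are printed for 4 genes. They lie at chr5:91139349-91139598 (plus strand) for Areg, chr5:91402995-91403244 (minus strand) for Btc, chr6:86194972-86195221 (plus strand) for Tgfa and chr11:98412234-98412483 (plus strand) for Erbb2. Capitals mark matches, on either strand, to the letters searched: the palindromic estrogen response element (GGTCA, 3 bases of any kind, then TGACC), its half-site GGTCA, the AP-1 site TGACTCA, the cyclic AMP response element TGACGTCA, the GC box GGGCGG and the TATA box TATAAA. The first of these contains the half-site, so the searches overlap.
Areg upstream: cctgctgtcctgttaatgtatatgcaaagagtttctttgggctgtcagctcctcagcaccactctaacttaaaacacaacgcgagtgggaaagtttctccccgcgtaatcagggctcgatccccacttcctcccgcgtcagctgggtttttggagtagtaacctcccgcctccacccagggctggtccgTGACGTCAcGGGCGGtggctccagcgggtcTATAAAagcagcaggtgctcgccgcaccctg
Btc upstream: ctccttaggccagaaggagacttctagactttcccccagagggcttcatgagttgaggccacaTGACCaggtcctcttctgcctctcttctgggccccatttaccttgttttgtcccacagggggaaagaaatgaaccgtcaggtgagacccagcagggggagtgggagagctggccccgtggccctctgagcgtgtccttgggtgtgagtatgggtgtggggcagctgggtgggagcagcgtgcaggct
Tgfa upstream: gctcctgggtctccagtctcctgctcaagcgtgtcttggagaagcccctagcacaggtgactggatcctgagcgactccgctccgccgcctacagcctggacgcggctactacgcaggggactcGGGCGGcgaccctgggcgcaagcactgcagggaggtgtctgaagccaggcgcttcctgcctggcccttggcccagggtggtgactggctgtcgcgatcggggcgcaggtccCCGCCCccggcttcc
Erbb2 upstream: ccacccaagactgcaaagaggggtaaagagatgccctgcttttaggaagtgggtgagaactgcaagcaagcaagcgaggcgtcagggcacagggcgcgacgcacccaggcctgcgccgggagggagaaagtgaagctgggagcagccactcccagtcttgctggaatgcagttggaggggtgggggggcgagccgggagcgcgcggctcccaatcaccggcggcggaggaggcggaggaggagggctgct
None of the 7 promoters of the 6 genes held the palindromic element, which was present in 0.0700% of 32851 promoters of the same length, or TGACTCA, present in 5.20%. The half-site GGTCA, present in 40.5% of all promoters, was found in Areg (24 bases after the start site), Btc (187 before) and Egfr (192 and 115 before). TGACGTCA, present in 1.79%, was found in Areg alone, 61 bases before the start site, with TATAAA (13.6% of promoters) 31 bases before it. GGGCGG (35.7% of promoters) was found in Areg, Egfr and Tgfa, and no searched letters were found in Erbb2 or in the 2 promoters of Egf. A match describes letters in this window only.

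The array values are log2 of the processed spot signal minus the log2 of the array's 75th percentile, so that 0 is the signal of the 75th percentile spot and 1 unit is a doubling. The 75th percentile lay at 922 to 1296 intensity units, 36505 to 41890 of 59305 non-control spots per array were well above background, 0 were saturated, and replicates of a group correlated at 0.980 to 0.993 over genes, which are not independent replicates. Markers of the layers of the organ were measured: 8 of 8 epithelial, 8 of 8 stromal and 6 of 6 smooth muscle genes were well above background on all 16 arrays. So were 5 of 5 endothelial, 6 of 6 leucocyte and 3 of 3 mesothelial genes, and these lists do not single out the uterus. The mean level of the epithelial list ranged from 2.63 to 3.06 in WT PLB, 2.72 to 2.97 in WT E2, 2.68 to 2.92 in Arg260 PLB and 2.72 to 3.11 in Arg260 E2, so the groups overlapped. Of the 8 stromal genes 0 were called higher and 5 lower with E2 in either genotype. Over all genes limma called 63.6% with E2 in WT (31.9% higher, 31.7% lower). The share in Arg260 was 64.3% (33.6% higher, 30.7% lower). The stromal list's median over arrays was 4.72 in WT PLB and 3.75 in WT E2, 4.58 in Arg260 PLB and 3.80 in Arg260 E2. Adipocyte markers had negative E2 changes for 6 of 6 genes in each genotype, of which limma called 6 in WT and 2 in Arg260, and the list's median over arrays was 1.44 in WT PLB and -2.20 in WT E2, 0.06 in Arg260 PLB and -1.83 in Arg260 E2. The difference in response between genotypes was called for none of the 6 (0 by limma). In a whole organ, fewer cells of a type and less RNA per cell cannot be told apart, and the part of these marker shifts in the changes below was not tested.

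E2 changed the family in both directions in both genotypes. In WT, 6 of the 8 tested genes were called by limma at an adjusted p under 0.05 (3 higher, 3 lower), and the background was 63.6% of all 25859 genes (31.9% higher, 31.7% lower). In Arg260, 6 of 8 were called as well (3 higher, 3 lower) against 64.3% of all genes (33.6% higher, 30.7% lower). A share of 75% among 8 genes is close to that background. Hbegf, Tgfa and Nrg1 rose, Btc, Erbb2 and Erbb3 fell, and Egf and Egfr were not called in either genotype. Btc and Erbb3 passed the filter through their PLB arrays, as each was well above background on only 1 E2 array. Their place among the lower genes is therefore not independent of the filter.

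**Figure D1:**
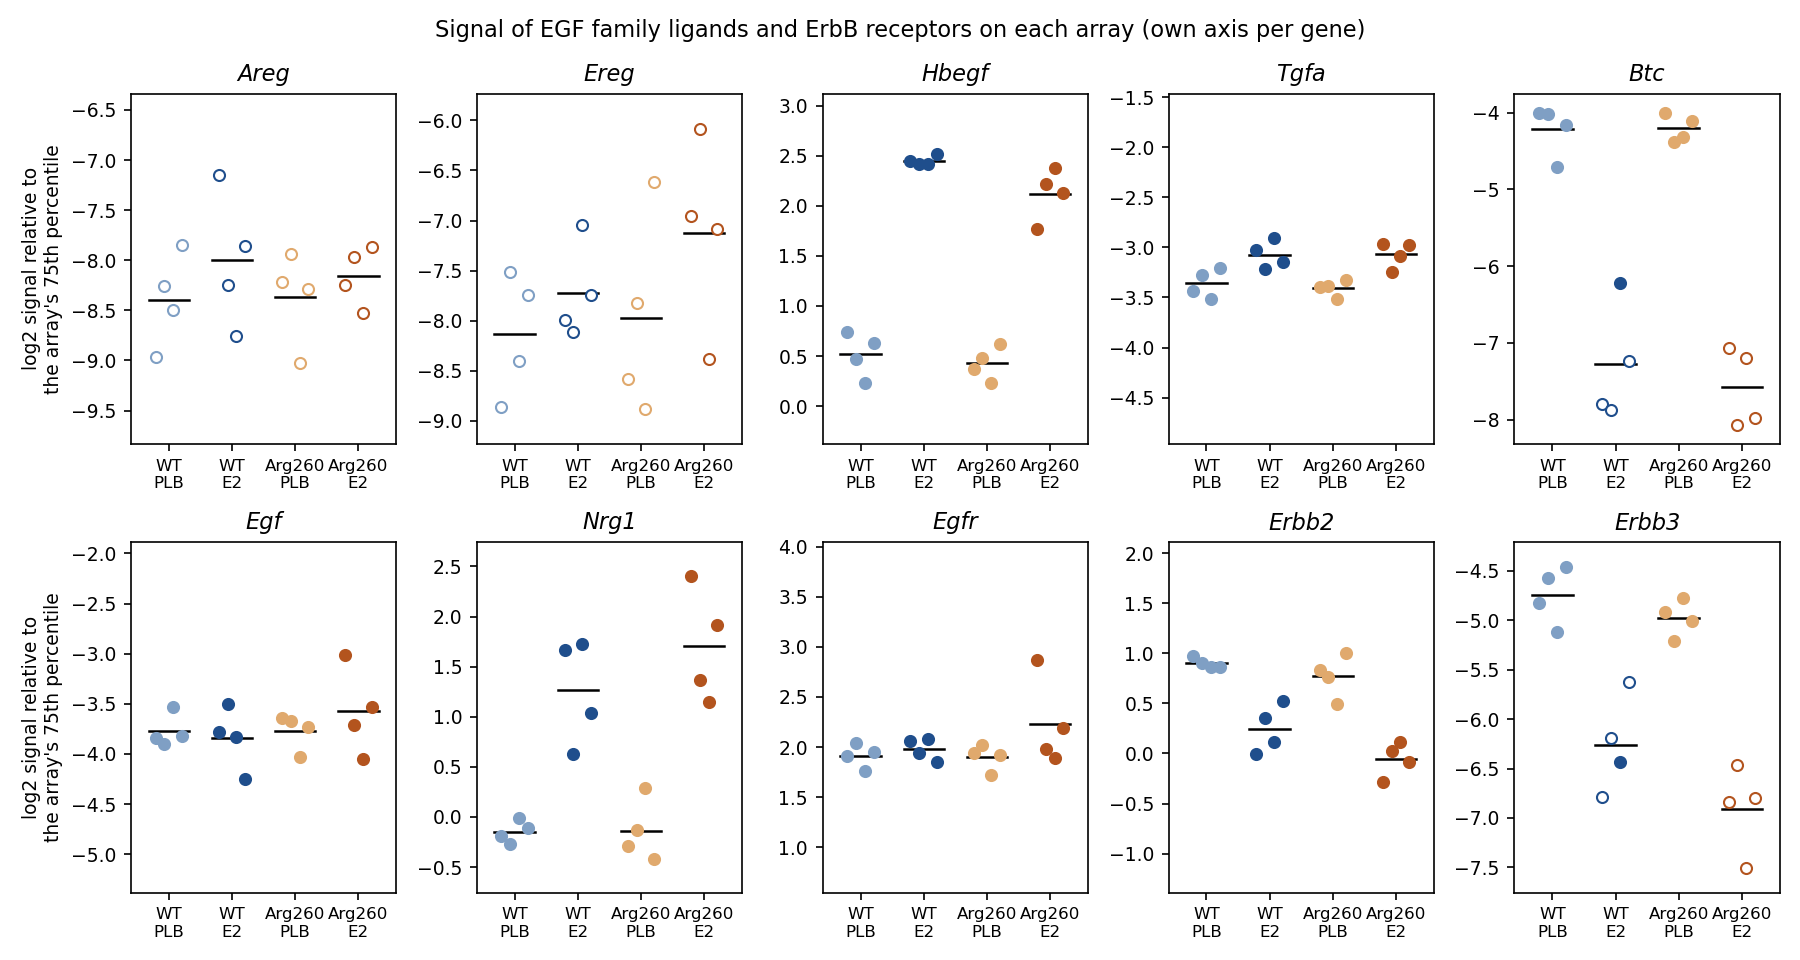
Level of each of the 10 genes on each of 16 arrays, in log2 units relative to the array's 75th percentile, with a separate vertical axis for each gene. Points are arrays, filled where the probe was well above background and open where it was not, bars are means of 4 arrays, and Egfr is shown by its brightest probe. Hbegf and Nrg1 sit higher in both E2 groups, Btc, Erbb2 and Erbb3 sit lower, and every Areg and Ereg point is open.

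Hbegf, the heparin-binding ligand, had levels of 0.74, 0.47, 0.23 and 0.63 on the 4 WT PLB arrays and 2.44, 2.42, 2.41 and 2.51 on the WT E2 arrays. In Arg260 its levels were 0.38, 0.48, 0.23 and 0.62 with PLB and 1.77, 2.22, 2.37 and 2.13 with E2. The E2 and PLB groups did not overlap in either genotype, and the lowest E2 array was Arg260 E2 replicate 1. Hbegf rose by 1.93 log2 units in WT (SE 0.13, 3.81-fold, limma adjusted p = 1.16e-08) and by 1.69 in Arg260 (SE 0.13, 3.23-fold, limma adjusted p = 4.31e-08). Its probe lies on chromosome 18 of mm9 and is read from a single spot per array.

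Nrg1, neuregulin 1, a ligand of Erbb3 and Erbb4, had levels of -0.19, -0.27, -0.01 and -0.11 in WT PLB and 1.67, 0.63, 1.73 and 1.04 in WT E2. The Arg260 arrays read -0.29, -0.13, 0.29 and -0.42 with PLB and 2.40, 1.36, 1.15 and 1.92 with E2. The treatments did not overlap in either genotype, and the E2 arrays of each genotype were spread over about 1 log2 unit, wider than the PLB arrays. Nrg1 rose by 1.41 in WT (SE 0.28, 2.66-fold, limma adjusted p = 0.000423) and by 1.84 in Arg260 (SE 0.28, 3.59-fold, limma adjusted p = 3.66e-05). Nrg1 is also made by nerves and is a growth factor of Schwann cells. The 3 tested genes of the Schwann cell list (of 4 listed) were all lower with E2 in both genotypes. Of all genes 31.7% were called lower in WT and 30.7% in Arg260. The list's median level over arrays was -1.28 for WT PLB and -2.30 for WT E2, and -1.37 for Arg260 PLB and -2.46 for Arg260 E2. Any bearing of these cells on the rise of Nrg1 was not tested.

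Tgfa, transforming growth factor alpha, is printed on 10 spots of each array, of which 7 to 10 were kept, and its spots within an array had a median SD of 0.106. Its levels were -3.43, -3.27, -3.52 and -3.21 in WT PLB and -3.03, -3.21, -2.91 and -3.15 in WT E2. In Arg260 they were -3.39, -3.39, -3.51 and -3.33 with PLB and -2.97, -3.25, -3.09 and -2.98 with E2. The Arg260 treatments did not overlap, whereas WT PLB replicate 4 and WT E2 replicate 2 lay side by side. Tgfa rose by 0.28 in WT (SE 0.093, 1.22-fold, limma adjusted p = 0.0149) and by 0.33 in Arg260 (SE 0.093, 1.26-fold, limma adjusted p = 0.00547). The call ended in both genotypes when the percentile was taken over spots well above background on all arrays (0.08 in WT and 0.09 in Arg260, limma adjusted p = 0.436 and 0.391). It also ended within each slide of 8 arrays (WT 0.23 and 0.34, limma adjusted p = 0.203 and 0.158; Arg260 0.28 and 0.39, limma adjusted p = 0.128 and 0.115), and in WT without WT PLB replicate 3 (0.23, limma adjusted p = 0.0532) or WT E2 replicate 3 (0.23, limma adjusted p = 0.0511).

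Btc, betacellulin, is a ligand of Egfr and Erbb4. Its levels were -4.00, -4.01, -4.71 and -4.16 in WT PLB and -7.80, -7.88, -6.21 and -7.24 in WT E2, where only replicate 3 was well above background. In Arg260 they were -4.01, -4.38, -4.32 and -4.10 with PLB and -7.06, -8.07, -7.20 and -7.98 with E2, where 0 of 4 arrays were. All 8 PLB arrays were thus measured above background and all 8 E2 arrays lay lower. In the main processing Btc was at least 3.94-fold lower with E2 in WT and at least 3.91-fold lower in Arg260. The fitted changes, which use the dim signals as they are, were -3.06 (SE 0.33, limma adjusted p = 1.26e-06) and -3.38 (SE 0.33, limma adjusted p = 4.44e-07). Such a bound sets the mean of the bright group against a floor for the dim one: per array, the higher of the probe's own signal and the lowest signal of any probe well above background. With normexp background correction (offset 50) and quantile normalisation the changes were -0.83 and -0.92, still called. These are smaller than the bounds, which therefore hold for the main processing only.

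Egf, the ligand that named the family, was well above background on all 16 arrays, with levels between -4.25 (WT E2 replicate 4) and -3.02 (Arg260 E2 replicate 1). Its groups overlapped. The E2 change was -0.07 in WT (SE 0.20, limma adjusted p = 0.783) and 0.19 in Arg260 (SE 0.20, limma adjusted p = 0.406), with 95% intervals of -0.49 to 0.35 and -0.23 to 0.61. With the percentile taken over spots well above background on all arrays the Arg260 value turned to -0.06, and with quantile normalisation the WT value turned to 0.08.

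Areg, amphiregulin, and Ereg, epiregulin, were not well above background on any of the 16 arrays. Areg read 2.28 to 9.15 intensity units and Ereg 2.50 to 15.1, against the 75th percentile of at least 922. Levels of Areg ranged from -9.03 to -7.15 and of Ereg from -8.88 to -6.09, and the groups overlapped for both. No fold is given for either, since the arrays give only an upper bound for both treatments. Areg, Ereg and Btc lie close together on chromosome 5 of mm9 with a relative, Epgn: the probes run from 91464119 for Epgn over 91522553 for Ereg and 91570090 for Areg to 91787007 for Btc. Along that stretch Epgn was measured on all arrays and not called, Ereg and Areg were not detected, and Btc fell.

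Egfr, the receptor that Egf and its closest relatives bind, was measured by 3 probes. On the brightest, its main probe (10 spots, chr11:16813815-16813874 of mm9) the levels were 1.91, 2.04, 1.76 and 1.95 in WT PLB and 2.06, 1.94, 2.08 and 1.85 in WT E2. In Arg260 they were 1.94, 2.02, 1.72 and 1.93 with PLB and 2.87, 1.99, 1.89 and 2.19 with E2. Arg260 E2 replicate 1 stood above all other arrays, and otherwise the groups overlapped. The E2 change was 0.06 in WT (SE 0.17, limma adjusted p = 0.754) and 0.33 in Arg260 (SE 0.17, limma adjusted p = 0.0914). A single array decided the Arg260 value: it was 0.12 (limma adjusted p = 0.310) without Arg260 E2 replicate 1 and 0.45 (limma adjusted p = 0.0297) without Arg260 E2 replicate 3. Taking the percentile over spots well above background on all arrays turned the WT value to -0.16.

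The 2 other Egfr probes, at chr11:16787172-16787231 and chr11:16783556-16783615, each on 1 spot, lie nearer the 5′ end of the gene than the main probe. In a fit of every probe by itself the first had a change of -0.29 in WT (SE 0.11, limma adjusted p = 0.0349) and 0.12 in Arg260 (SE 0.11, limma adjusted p = 0.371). The second had -0.01 in WT (SE 0.14, limma adjusted p = 0.957) and 0.26 in Arg260 (SE 0.14, limma adjusted p = 0.129). The first probe read -2.94, -2.69, -2.94 and -2.79 in WT PLB and -3.25, -2.98, -3.19 and -3.08 in WT E2, so the WT treatments did not overlap there. In WT 1 of the 3 Egfr probes was called and the 95% intervals of all 3 overlapped, and differences between probes were not tested. No genotype difference was called for any of the 3, with limma adjusted p = 0.9998 for each difference of the E2 responses and 0.587 to 0.775 for Arg260 against WT in E2. Before adjustment the 95% intervals of the first of the 2 other probes lay above 0, at 0.07 to 0.74 for the difference of the responses (0.40) and 0.10 to 0.57 for Arg260 against WT in E2 (0.33).

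**Figure D2:**
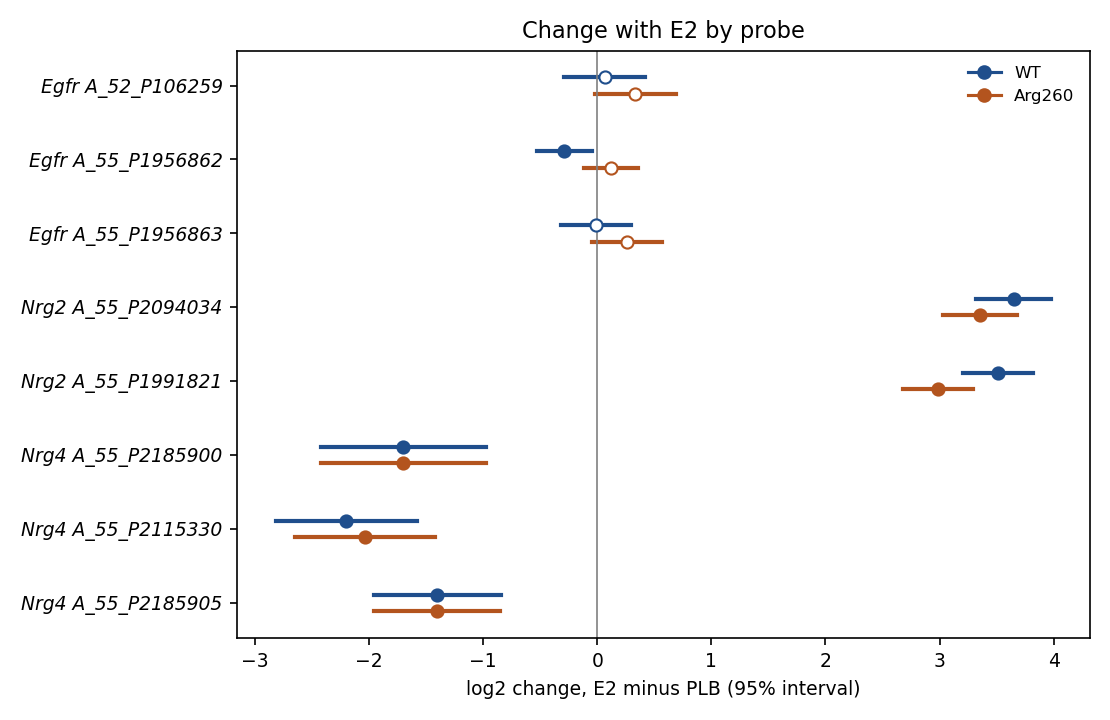
Change with E2 in log2 units, as points with 95% intervals, for each probe of Egfr, Nrg2 and Nrg4, in WT and Arg260; filled points were called by limma in the fit of every probe. The 3 Egfr probes lie around 0 and 1 of them is called in WT, whereas both Nrg2 probes lie near 3 and above and all 3 Nrg4 probes lie below -1.

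Erbb2, the receptor without a ligand of its own, had levels of 0.97, 0.90, 0.86 and 0.86 in WT PLB and -0.00, 0.35, 0.12 and 0.52 in WT E2. In Arg260 they were 0.83, 0.76, 0.49 and 1.0039 with PLB and -0.28, 0.03, 0.11 and -0.09 with E2. The treatments did not overlap in either genotype, and the probe has 10 spots per array. Erbb2 fell by 0.65 in WT (SE 0.13, 1.57-fold, limma adjusted p = 0.000393) and by 0.83 in Arg260 (SE 0.13, 1.78-fold, limma adjusted p = 4.37e-05). Within slide 2 alone the WT change was -0.54 and was not called (limma adjusted p = 0.0982). Its neighbours in RefSeq's gene order (GRCm38.p6) are Pgap3, whose change was 0.67 in WT and 0.82 in Arg260, and Mien1, with 0.01 and 0.05.

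Erbb3, the receptor with a weak kinase that binds neuregulins, had levels of -4.82, -4.58, -5.12 and -4.46 in WT PLB and -6.78, -6.19, -6.43 and -5.63 in WT E2, where only replicate 3 was well above background. In Arg260 they were -4.91, -5.21, -4.77 and -5.01 with PLB and -6.84, -6.47, -7.51 and -6.80 with E2, where 0 of 4 arrays were. As for Btc, the 8 PLB arrays were above background and the 8 E2 arrays lay lower than any of them. By the same rule, in the main processing, Erbb3 was at least 2.79-fold lower with E2 in WT and at least 2.29-fold lower in Arg260. The bound rests on the choice of floor: WT E2 replicate 4 read above its array's floor (-5.74) and was still not well above background. The fitted changes were -1.52 (SE 0.25, limma adjusted p = 7.54e-05) and -1.93 (SE 0.25, limma adjusted p = 6.94e-06). The normexp correction gave -0.39 and -0.42, still called but smaller than the bounds. Erbb3 and Erbb2 are expressed mainly in epithelium in many organs, and the 8 epithelial markers had 2 called higher and 2 called lower in WT, and for Arg260 these counts were 4 and 1. The 3 tested Schwann cell genes were all lower with E2, with a median change of -1.05 in WT and -1.17 in Arg260. Beside these counts, 31.9% of all genes were called higher and 31.7% lower in WT, and 33.6% and 30.7% in Arg260. The part of either cell type in the fall of Erbb3 and Erbb2 was not tested.

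**Figure D3:**
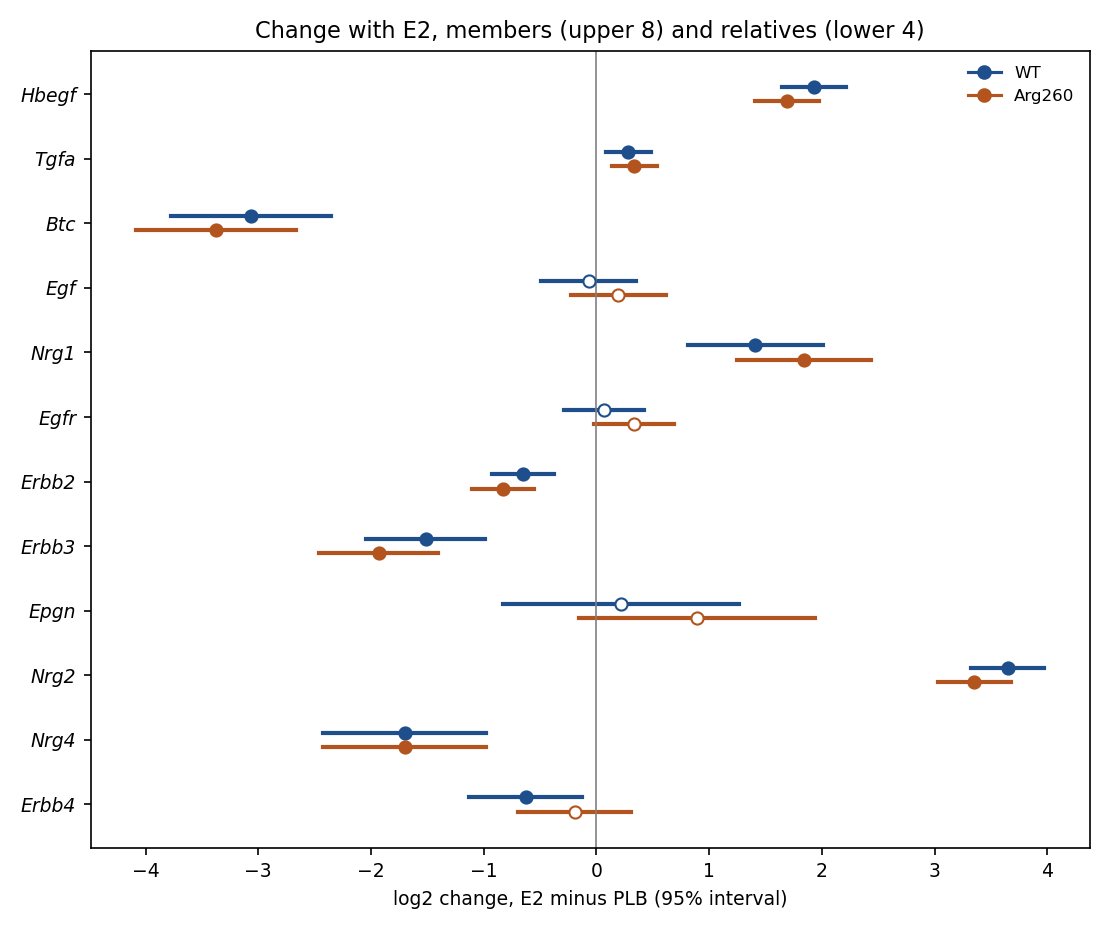
Change with E2 in log2 units (E2 minus PLB), as points with 95% intervals from limma, for the 8 tested members and 4 relatives in WT and Arg260; filled points were called at an adjusted p under 0.05. Nrg2, Hbegf and Nrg1 lie right of 0 and Btc, Erbb3, Nrg4 and Erbb2 left of it in both genotypes, and the 2 intervals of each gene overlap.

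The comparison of genotypes asked whether these genes or their response to E2 differed between Arg260 and WT. No member was called for the difference of the E2 responses, for Arg260 against WT in PLB or for Arg260 against WT in E2 (0 of 8 in each by limma), and the background was 0% of all genes in each. At an unadjusted p under 0.05 there were 961, 638 and 1899 genes, of which 0, 0 and 3 were members. The 3 were Hbegf, Erbb2 and Erbb3, all lower in Arg260 E2 than in WT E2. Hbegf differed by -0.32 (95% interval -0.61 to -0.04, limma adjusted p = 0.645), and its E2 groups did not overlap, with the 4 WT arrays above the 4 Arg260 arrays. Erbb2 differed by -0.31 (95% interval -0.58 to -0.03, limma adjusted p = 0.647) and Erbb3 by -0.65 (95% interval -1.17 to -0.12, limma adjusted p = 0.627), with overlapping groups. Erbb3 was above background on 1 of these 8 arrays.

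The differences of the E2 responses (Arg260 minus WT) were -0.24 for Hbegf, 0.05 for Tgfa, -0.31 for Btc, 0.26 for Egf, 0.43 for Nrg1, 0.27 for Egfr, -0.18 for Erbb2 and -0.41 for Erbb3. Their 95% intervals all included 0. Tgfa had the narrowest, from -0.23 to 0.33, and Btc the widest, from -1.31 to 0.69. For Btc and Erbb3 these values compare E2 groups of which 1 of 8 arrays was above background, so they bear mostly on dim signal. In PLB the differences between genotypes ran from -0.23 for Erbb3 to 0.02 for Btc, and every pair of PLB groups overlapped.

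**Figure D4:**
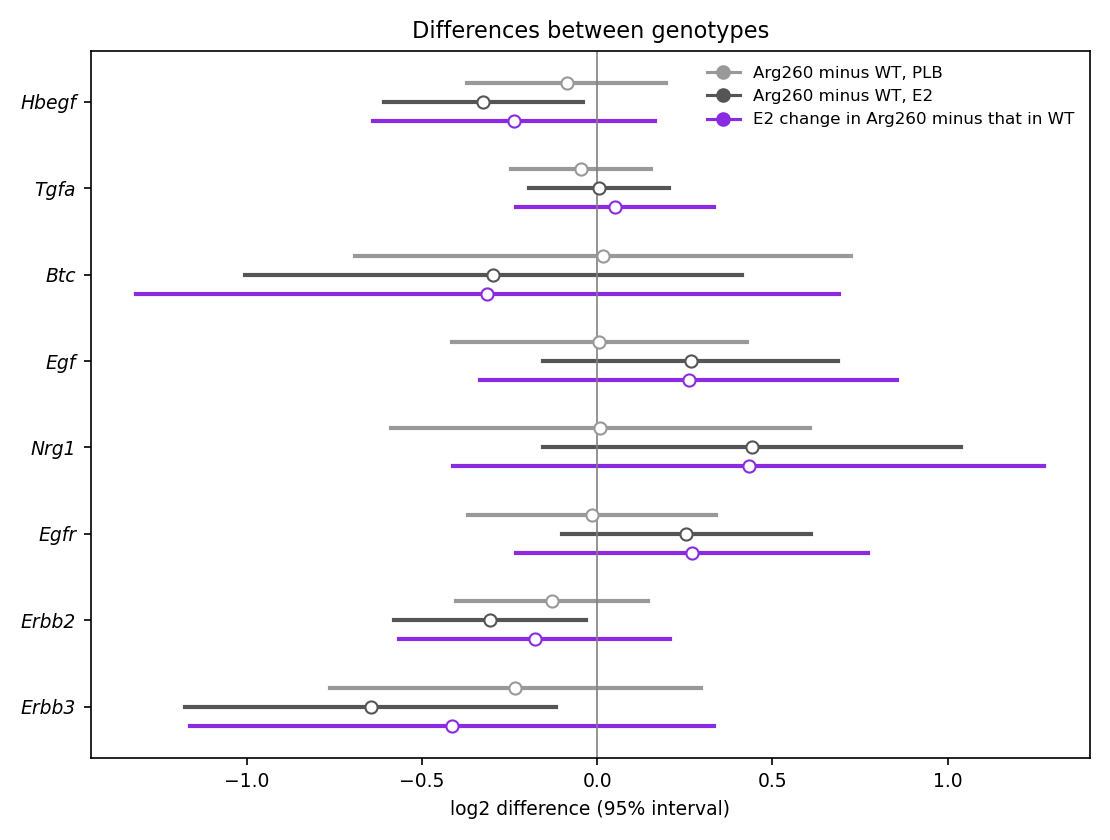
Differences between genotypes in log2 units for the 8 tested members, as points with 95% intervals from limma: Arg260 minus WT in PLB, Arg260 minus WT in E2, and the E2 change in Arg260 minus that in WT. All points are open because none was called, and the E2 intervals of Hbegf, Erbb2 and Erbb3 lie below 0 before adjustment.

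The 5 relatives outside the members (Epgn, Nrg2, Nrg3, Nrg4 and Erbb4) complete the mammalian family. Nrg2, a neuregulin, had 2 probes on chromosome 18 of mm9. On the brighter one it read 0.33, -0.11, 0.29 and 0.31 in WT PLB, 4.07, 3.91, 3.69 and 3.73 in WT E2, 0.40, 0.40, 0.42 and 0.17 in Arg260 PLB and 4.16, 3.71, 3.50 and 3.44 in Arg260 E2. Nrg2 rose by 3.65 in WT (SE 0.15, 12.5-fold, limma adjusted p = 1.27e-10) and by 3.35 in Arg260 (SE 0.15, 10.2-fold, limma adjusted p = 2.30e-10), and the other probe, tested by itself, by 3.51 and 2.98. These changes are larger in size than that of any member measured on both sides of the comparison.

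Nrg4, a neuregulin that binds Erbb4, fell by 1.70 in both genotypes (SE 0.34, limma adjusted p = 0.000441 in WT and 0.000437 in Arg260). Its 2 other probes fell too in the fit of every probe, with changes of -2.20 and -1.40 in WT and, for Arg260, of -2.03 and -1.40. The call was lost within slide 2, where the change was -1.57 in WT and -1.58 in Arg260 (limma adjusted p = 0.0990 and 0.0979). Erbb4, the remaining receptor of the family, fell by 0.63 in WT on its brighter probe (SE 0.23, limma adjusted p = 0.0294), with overlapping groups, and had a change of -0.19 in Arg260 (SE 0.23, limma adjusted p = 0.492). Of 31 settings for WT, 9 did not call Erbb4 (limma adjusted p up to 0.102), among them the 2 quantile normalisations, the deposited series table and leaving out 5 of the WT arrays, each in turn. The difference of its E2 responses was 0.44 and was not called (limma adjusted p = 0.9998), nor was Arg260 against WT in PLB, at -0.58 (95% interval -1.08 to -0.08, limma adjusted p = 0.9996). Epgn, epigen, was measured on all arrays with changes of 0.22 in WT (SE 0.49, limma adjusted p = 0.721) and 0.89 in Arg260 (SE 0.49, limma adjusted p = 0.125). Nrg3 and a second probe of Erbb4 were not well above background on any array.

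Around the receptors, genes were grouped by step, from the release of ligands to the transcripts that MAP kinases raise. Of 12 proteins that shed or mature the ligands, 11 were tested: E2 raised 5 and lowered 0 in WT (median 0.38, against -0.02 over all genes), and it raised 7 and lowered 0 in Arg260 (median 0.42, against 0.02). The called share over all genes was 63.6% in WT (31.9% higher, 31.7% lower) and 64.3% in Arg260 (33.6% higher, 30.7% lower). Rhbdf2, an inactive rhomboid that carries the protease ADAM17 to the cell surface, rose by 1.37 in WT and 1.60 in Arg260 (SE 0.12, limma adjusted p = 1.39e-07 and 2.73e-08), from levels of 0.45 to 0.62 in WT PLB to 1.73 to 2.06 in WT E2. Adam17 itself, the main protease of Tgfa, Areg and Hbegf, was not called, with 0.01 in WT (SE 0.17, limma adjusted p = 0.969) and -0.26 in Arg260 (limma adjusted p = 0.193).

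Of 12 genes that restrain or turn over the receptors, E2 raised 8 and lowered 2 in WT (median 0.71), while for Arg260 it raised 9 and lowered 2 (median 0.47). Over all genes E2 raised 31.9% and lowered 31.7% in WT, with a median of -0.02, and raised 33.6% and lowered 30.7% in Arg260, with a median of 0.02. Errfi1, an inhibitor of the Egfr kinase, rose by 3.07 in WT and 3.40 in Arg260 (SE 0.18, limma adjusted p = 2.72e-09 and 9.89e-10). Its levels were 2.66, 3.50, 2.66 and 3.06 in WT PLB and 6.27, 6.03, 5.99 and 5.84 in WT E2, well apart. Lrig1, a membrane protein that promotes receptor degradation, rose by 1.29 and 1.62 (SE 0.12), and Socs4, of the suppressors of cytokine signalling, by 0.98 and 1.099 (SE 0.085). Cblb, a ubiquitin ligase, fell by 1.30 in WT and by 1.05 in Arg260 (SE 0.084). The limma adjusted p of Lrig1, Socs4 and Cblb ranged from 5.96e-09 to 3.82e-07.

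Among 5 membrane partners, 2 were higher and 0 lower in each genotype, with medians of -0.03 and -0.05. Of all genes 31.9% were higher and 31.7% lower in WT (median -0.02). In Arg260 these shares were 33.6% and 30.7% (median 0.02). The 2 higher partners were the mucins Muc1 (1.78 and 1.80, SE 0.19) and Muc4 (1.35 and 2.15, SE 0.37), both known to associate with ErbB receptors at the epithelial surface. Muc4 read 1.70, 0.84, 2.26 and 0.20 in WT E2, which overlapped WT PLB (-0.40 to 0.36), and it was not called in WT within slide 1 (1.29, limma adjusted p = 0.0512) or slide 2 (1.41, limma adjusted p = 0.132). Of 24 adaptors and kinases, E2 raised 11 and lowered 8 in WT (median 0.11), and it raised 11 and lowered 9 in Arg260 (median 0.25), beside 63.6% and 64.3% of all genes called in either direction. Grb7, an adaptor that binds ErbB receptors, fell by 2.37 and by 2.59 (SE 0.15), and Gab1, a docking protein of Egfr signalling, by 2.34 and by 2.40 (SE 0.11). Map2k1, the kinase that activates ERK, rose by 1.80 and 1.93 (SE 0.073), and Akt1, a kinase of the survival branch, by 1.64 and 1.70 (SE 0.089).

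Of 15 transcripts known to be raised by MAP kinase signalling, 12 rose and 3 fell in WT (median 1.48), while 11 rose and 2 fell in Arg260 (median 1.57). Among all genes 31.9% rose and 31.7% fell in WT (median -0.02), and 33.6% rose and 30.7% fell in Arg260 (median 0.02). Fosl1, a partner in the AP-1 transcription factor, was not well above background on any PLB array. In the main processing it was at least 8.48-fold higher with E2 in WT and at least 11.5-fold higher in Arg260. Its fitted changes, 4.66 in WT and 4.77 in Arg260, went as low as 1.53 and 1.74 under the alternatives and stayed called. Fos rose by 3.39 and 4.21 (SE 0.63, limma adjusted p = 0.000246 and 3.19e-05) from PLB levels that spread from -1.55 to 1.22 in WT. Spry4, a feedback inhibitor, rose by 3.34 and 3.55 (SE 0.34; 3 of 4 Arg260 PLB arrays measured it), and Ier3, an immediate early gene, by 3.03 and 2.71 (SE 0.17). Etv4 and Etv5, which are in this list as ERK-driven factors, were lower with E2 in both genotypes, at -0.81 and -1.77 in WT and -0.50 and -1.60 in Arg260. No gene of the 5 lists was called for a difference between genotypes in PLB, in E2 or in the response.

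**Figure D5:**
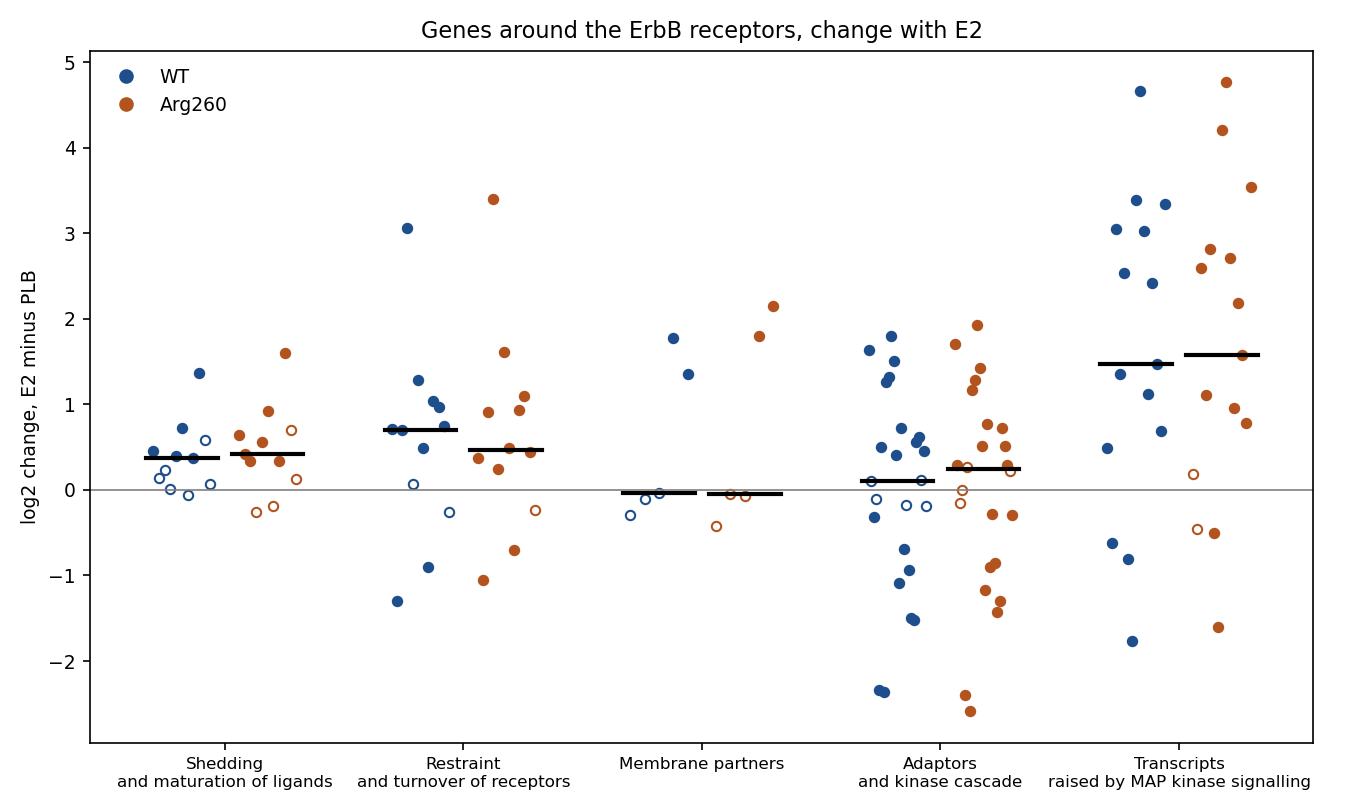
Change with E2 in log2 units for each tested gene of the 5 lists around the ErbB receptors, in WT and Arg260; points are genes, filled where limma called them, and bars are medians of the list. The list of transcripts raised by MAP kinase signalling has the highest medians, 1.48 and 1.57, and the membrane partners the lowest, -0.03 and -0.05.

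For the 3 members with the largest fitted E2 change averaged over genotypes (Erbb3 stands above Nrg1 in that order only by fitted values, its E2 arrays being mostly not above background), the genes with the most similar profile were found over all 16 arrays, by the root mean square distance between values centred on each gene's mean, among 15946 genes with an official symbol. Btc was nearest to Lrguk (0.372 log2 units), Dapk2 (0.389) and Cldn22 (0.407), where the profile of Btc itself had a root mean square of 1.67. Lrguk had E2 changes of -2.99 in WT and -3.37 in Arg260, near those of Btc. Members picked for a large E2 change are thus near genes with a like change. The E2 arrays of Btc, too, were mostly not above background. Hbegf was nearest to Rufy4 (0.147), Klhl29 (0.152) and Gpr4 (0.156), and Erbb3 to Lgr5 (0.240), Efna4 (0.282) and Cldn8 (0.284). Lgr5, a receptor of Wnt agonists known from epithelial progenitors, had changes of -1.36 in WT and -1.999 in Arg260.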

How the data were processed

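Per the file headers, the authors read each scan with Agilent Feature Extraction 10.10.1.1, and the resulting intensity of a spot (its processed signal) was corrected for background but not brought to a scale common to all arrays. A second table deposited by the authors gives log2 values for 37585 probes, all 16 columns with nearly 1 distribution; the background correction behind it is not given in the sources used here, and it served as an alternative. RNA of 16 samples was measured on 1-colour arrays on 2 slides of 8, replicates 1 and 2 on the first and 3 and 4 on the second.

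Outlier spots were left out and spots of a probe averaged. Each array's log2 processed signals, less the log2 of their 75th percentile, were fitted by group by lmFit and eBayes of limma 3.58.1 (R 4.3.3; 12 residual degrees of freedom) over 38678 probes well above background on at least 4 arrays, the brightest probe standing for each of 25859 genes. Tests of the 5 comparisons were two-sided, with Benjamini-Hochberg adjustment across every gene tested and calls at 0.05. SE comes from this fit, with n = 4 arrays a group. Precision is limited by the number of arrays. The fit was tested on simulated data.

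Named genes were all members and relatives and, per list, the 4 called in both genotypes with the largest mean change of at least 1 log2 unit in a genotype. Adam17, Etv4 and Etv5 were added after their values were seen, as were the neighbours of Erbb2. The members and lists were chosen with earlier results of these data known. Gene names were updated through RefSeq names (GRCm38.p6, names and promoters only), with 24300 of 55681 probes keeping the file's name, and probe positions are those of the files (mm9). The alternatives were other scalings and background corrections, the series table, filters, probe rules, a trended prior, slides, a replicate block and leaving out each array.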

Additional observations from a re-analysis of the deposited data

Results flagged for a closer look

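In 144 groups of 4 arrays (each probe of the members and relatives and each pathway gene named above), the highest or lowest array was set against the range of its group. In 5 of them the gap to the nearest array exceeded Dixon's 95% critical value for 4 samples, which chance passes in about 1 of 20 groups. For the brighter Nrg2 probe WT PLB replicate 2 lay below its group at -0.11 (gap 0.900 of the range), and so did Arg260 PLB replicate 4 at 0.17 (0.890). Grb7 was high in Arg260 E2 replicate 1 at 0.82 (0.879), the array that was also highest for Egfr. Akt1 stood apart in Arg260 PLB replicate 4 at 4.12 (0.906). Socs4 stood apart in WT E2 replicate 1 at -0.42 (0.895). No group of a member's probe was among the 5.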

How the results depend on the processing

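Each result was recomputed under 30 alternatives, 16 of which left out 1 array. The number of members called stayed within 1.5 times its main value in all 150 recomputed counts (5 comparisons). For the E2 comparisons it ran between 4 and 7 of the tested members, against 6 in the main fit, so this limit allows the loss of some calls. For the genotype comparisons the main count was 0 and few or no genes at all were called, so those counts say little about stability. No called change of a member or named gene reversed its sign. Uncalled member values took the other sign in 55 of 837 cases. Hbegf (1.72 to 2.03 in WT, 1.44 to 1.82 in Arg260), Nrg1 (1.21 to 1.62, 1.59 to 2.09), Btc (fitted -3.83 to -0.83, -3.62 to -0.92) and Erbb3 (-1.79 to -0.39, -2.27 to -0.42) stayed called throughout, and Erbb3 was not in the series table. Taking the percentile over spots well above background on all arrays moved the median of all genes in WT from -0.02 to -0.23 and the split of calls from 8245 higher and 8191 lower to 6450 and 10783, and in Arg260 from 8681 and 7948 to 6482 and 10886. For Arg260 against WT in E2, where limma called 0 of all genes, the alternatives called 3 (normexp, every probe), 2 (series table, trended prior, without Arg260 E2 replicate 3) or 1 (quantile normalisation, the other percentile, without WT PLB replicate 3), none of them a member. Over 24 same-numbered pairs the correlation of deviations ran from -0.11 to 0.26 with 3 above 0.1. Of 16 arrays, 5 correlated best with their own number, so deviations over all genes gave little sign of pairing. The lowest signal well above background did go with the replicate number. Over the 4 groups it was -6.85 to -6.56 for number 1 and -6.11 to -5.78 for number 2. For number 3 it was -6.87 to -6.31 and for number 4 -6.08 to -5.69. The bearing of this shared floor on dim probes was not tested. With a replicate block 16394 genes were called in WT and 16673 in Arg260, with 6 members in each. Dim probes limit Btc and Erbb3 in E2 groups and Areg and Ereg throughout.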
